A study of Mus musculus with 6 samples.

Results

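The 6 genes described here encode enzymes and carriers of ketone body metabolism: *Acat1*, *Bdh1*, *Bdh2*, *Oxct1*, *Slc16a1* and *Slc16a7*. They were taken by symbol from the 21367 genes of 1 mRNA sequencing experiment on mouse kidney, and each symbol matched 1 gene. They were chosen by their role with the levels and fold changes of this same comparison in view, so their differences between groups are given as a description, with a standard error (SE) and no p-value. The groups were 3 Ptpn6+/mev mice and 3 wild-type littermates on a C57BL/6 background, 1 library per mouse. The heterozygotes have the viable motheaten mutation, a splice-site change in the SHP-1 phosphatase gene *Ptpn6*, on 1 chromosome in every cell type, and keep 1 normal copy. All 6 mice were 7 weeks old, lost the right kidney, had the left kidney made ischemic for 34 min and were killed after 24 h of reperfusion. Libraries from kidneys without injury were not analysed here, so the values compare genotypes after injury only.

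Ketone bodies, acetoacetate and 3-hydroxybutyrate, are made from acetyl-CoA in mitochondria, mainly in the liver during fasting, and are burned by organs such as heart, brain and kidney. Bdh1 interconverts acetoacetate and 3-hydroxybutyrate, Oxct1 (SCOT) passes CoA from succinyl-CoA to acetoacetate and commits it to oxidation, and the mitochondrial thiolase Acat1 splits acetoacetyl-CoA into acetyl-CoA or runs the other way. The monocarboxylate carriers MCT1 (*Slc16a1*) and MCT2 (*Slc16a7*) move ketone bodies, lactate and pyruvate across the plasma membrane. Kidney tubules rely on fatty acids, ketone bodies and lactate for energy and take up filtered ketone bodies.

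The deposited counts summed to between 10271590 and 12361745 per library. Wild-type replicate 2 stood apart from the rest. Its factor from edgeR's TMM normalization, which scales libraries to each other, was 0.929, against 0.994 to 1.03 in the other libraries. Its summed level of 5 endothelial markers was 48.0 FPKM (fragments scaled by transcript length and by the library's total), against 114 to 123 in the other 5 libraries, and that of 5 fibroblast markers was 42.0 FPKM, against 109 to 188. Values without this library are given beside the results it moves most. *Ptpn6* itself averaged 13.4 ± 1.42 FPKM in Ptpn6+/mev and 14.6 ± 3.38 FPKM in wild-type kidneys (SD, n = 3 each). Wild-type replicate 2 was the lowest of all mice for this gene, at 10.9 FPKM. The log2 fold change of *Ptpn6* (Ptpn6+/mev minus wild-type, edgeR) was -0.19 ± 0.17 (SE). It was -0.33 without wild-type replicate 2 and -0.05 without wild-type replicate 1. A level per gene does not show the splice-site change, so it does not check the labels. All 9 proximal tubule markers were detected in every library, with means over the 6 mice from 5.04 FPKM for the transporter gene *Slc7a13* to 543 FPKM for the fatty acid transport gene *Slc27a2*.

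All 6 genes passed the filter on low counts and were tested in the fit over 13036 genes. With edgeR's quasi-likelihood test, 0 of 6 had a false discovery rate (FDR) under 0.05, where 0.138% of all tested genes passed, and 0 of 6 had an unadjusted p under 0.05, where 12.2% did. The exact test of edgeR called 0 of 6 against 2.99% of all tested genes, and DESeq2 0 of 6 against 3.04%. On log2(FPKM + 1) limma called 0 of 6 against 0.146%, and on log2(FPKM + 0.1) 0 of 6 against 0.0614%. The log2 fold changes (Ptpn6+/mev minus wild-type) ran from -0.28 to 0.17, with 3 above 0 and 3 below, or 2 below in limma on FPKM, where *Slc16a1* turned. In limma the median over all tested genes was itself above 0, at 0.06 on log2(FPKM + 1) and 0.08 on log2(FPKM + 0.1). In the edgeR fit the median of the 6 genes was 0.01, or 0.12 without wild-type replicate 2, against -0.002 over all tested genes. The median of their sizes without sign was 0.17, against 0.15.

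The level per gene length set *Oxct1*, *Acat1* and *Bdh2* well above *Slc16a1*, *Bdh1* and *Slc16a7*. The mean over the 6 mice was 147 FPKM for *Oxct1*, 113 for *Acat1*, 81.7 for *Bdh2*, 24.3 for *Slc16a1*, 18.0 for *Bdh1* and 8.92 for *Slc16a7*. The median tested gene stood at 10.4 FPKM, and 95.4% of tested genes were below *Oxct1* and 46.4% below *Slc16a7*. *Oxct1* led in 5 of the 6 mice and *Acat1* in wild-type replicate 2. The ranges over mice of *Oxct1* and *Acat1* overlapped, so this pair is not ordered beyond the spread between mice. Those of *Slc16a1* and *Bdh1* overlapped too, although *Slc16a1* was above *Bdh1* within each of the 6 mice. *Bdh2* was below *Acat1* in every mouse, and *Slc16a7* was lowest of the 6 genes in every mouse.

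**Figure D1:**
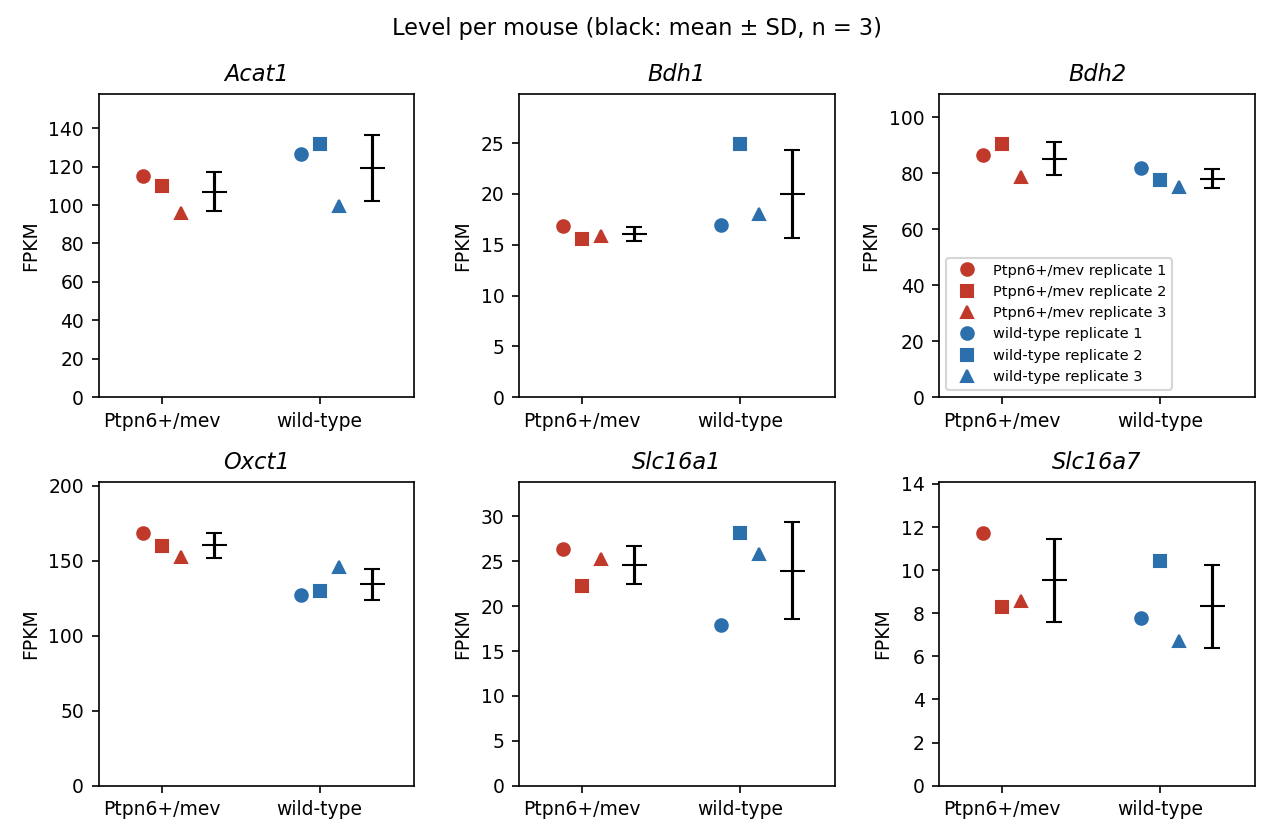
Deposited FPKM of the 6 ketone body genes in each mouse (y axis, linear and from 0; x axis, group). Symbols mark replicates and the black bars the mean ± SD of 3 mice. *Oxct1* sits at 153 to 169 in Ptpn6+/mev mice and at 127 to 146 in wild-type mice, and *Bdh1* is raised in wild-type replicate 2 at 24.9.

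*Oxct1*, the gene for the committing step of ketone body use (ENSMUSG00000022186), lies on chromosome 15 of GRCm38 from 4026383 to 4155344 on the plus strand. Ptpn6+/mev replicates 1, 2 and 3 stood at 169, 159.8 and 153 FPKM, and wild-type replicates 1, 2 and 3 at 127, 129.7 and 146 FPKM. Every Ptpn6+/mev mouse was above every wild-type mouse on this scale. The means were 160.4 ± 8.18 and 134 ± 10.3 FPKM (SD, n = 3 each). On the CPM scale (counts scaled by TMM-adjusted library size, with no length correction) the values were 443, 451 and 394 against 318, 455 and 373, and the groups overlapped. The log2 fold change from counts was 0.17 ± 0.13 (SE). It was 0.06 without wild-type replicate 1, the lowest mouse, and 0.32 without wild-type replicate 2, the highest of the wild-type mice in CPM.

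*Acat1* (ENSMUSG00000032047), the mitochondrial acetoacetyl-CoA thiolase, which also ends the breakdown of isoleucine, lies on chromosome 9 from 53580522 to 53610382 on the minus strand. Its FPKM was 115, 110.1 and 95.7 in Ptpn6+/mev mice and 127, 132 and 99.6 in wild-type mice. Wild-type replicate 3 fell inside the Ptpn6+/mev range, so the groups overlapped. The means were 107 ± 10.2 and 119 ± 17.3 FPKM (SD, n = 3 each), with a log2 fold change of -0.23 ± 0.14 (SE). Leaving out 1 library at a time moved it between -0.37, without wild-type replicate 3, and -0.11, without wild-type replicate 2. Within a mouse, the FPKM of *Oxct1* was 1.46, 1.45 and 1.59 times that of *Acat1* in the Ptpn6+/mev mice, and 1.00, 0.984 and 1.47 times in the wild-type mice, replicate by replicate. Wild-type replicate 3 sat among the Ptpn6+/mev mice in this ratio. On counts, with no length in the ratio, the values were 1.15, 1.22 and 1.24 against 0.73, 0.94 and 1.10, and wild-type replicate 3 lay below the Ptpn6+/mev mice. How many pairs of genes separate the groups in this way was not counted.

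*Bdh1* (ENSMUSG00000046598), the mitochondrial 3-hydroxybutyrate dehydrogenase, lies on chromosome 16 from 31422280 to 31458901 on the plus strand. Its FPKM was 16.85, 15.58 and 15.83 in Ptpn6+/mev mice and 16.94, 24.9 and 18.05 in wild-type mice. The groups did not overlap, but the nearest mice, Ptpn6+/mev replicate 1 and wild-type replicate 1, were almost level. In CPM the values were 34.7, 33.9 and 29.2 against 34.5, 51.3 and 33.1, which overlapped. The log2 fold change of -0.28 ± 0.18 (SE) became -0.05 without wild-type replicate 2, so most of the difference in *Bdh1* was carried by that mouse. The FPKM of *Bdh1* was 0.0998, 0.0975 and 0.104 times that of *Oxct1* in the Ptpn6+/mev mice and 0.133, 0.192 and 0.124 times in the wild-type mice. On FPKM, 2 of the 6 genes, *Oxct1* and *Bdh1*, had groups that did not overlap, where 20.4% of all tested genes did so. In CPM it was 0 of 6, where 19.4% of all tested genes did so. With FPKM divided by the TMM factor, tried after the data were seen, it was again 2 of 6, against 19.1% of all tested genes.

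*Bdh2* (ENSMUSG00000028167), a cytosolic short-chain dehydrogenase named for the same reaction, lies on chromosome 3 from 135281221 to 135304426 on the plus strand. Its FPKM was 86.7, 90.4 and 78.7 in Ptpn6+/mev mice and 81.8, 77.5 and 74.9 in wild-type mice, and the groups overlapped. The log2 fold change was 0.05 ± 0.10 (SE), or 0.09 without wild-type replicate 2. Over the 6 libraries its log2 CPM varied least of the 6 genes, and no fit that left out 1 library moved its log2 fold change beyond the range -0.00 to 0.11.

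*Slc16a1* (ENSMUSG00000032902), the gene for MCT1, lies on chromosome 3 from 104638668 to 104658462 on the plus strand. Its FPKM was 26.4, 22.3 and 25.3 in Ptpn6+/mev mice and 17.9, 28.2 and 25.8 in wild-type mice, so the wild-type mice held both the lowest and the highest value. The means of 24.6 ± 2.12 and 24.0 ± 5.37 FPKM (SD, n = 3 each) were closer than the spread between mice, and the log2 fold change was -0.04 ± 0.18 (SE). It was -0.21 without wild-type replicate 1 and 0.14 without wild-type replicate 2, so its direction depended on the mice kept. In limma on log2(FPKM + 1) it was 0.06, where the median over all tested genes was also 0.06.

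*Slc16a7* (ENSMUSG00000020102), the gene for the high-affinity carrier MCT2, lies on chromosome 10 from 125219270 to 125389465 on the minus strand. Its FPKM was 11.7, 8.28 and 8.55 in Ptpn6+/mev mice and 7.79, 10.4 and 6.72 in wild-type mice. Ptpn6+/mev replicate 1 and wild-type replicate 2 were the high mice, 1 in each group, and the groups overlapped. With 219 to 343 counts per library it was the least counted of the 6 genes. The log2 fold change was 0.17 ± 0.24 (SE), and the fits with 1 library left out gave -0.01 when Ptpn6+/mev replicate 1 was missing and 0.45 when wild-type replicate 2 was. *Slc16a1* exceeded *Slc16a7* in every mouse, by 2.24 to 2.96 times in Ptpn6+/mev mice and by 2.30 to 3.84 times in wild-type mice, on FPKM.

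**Figure D2:**
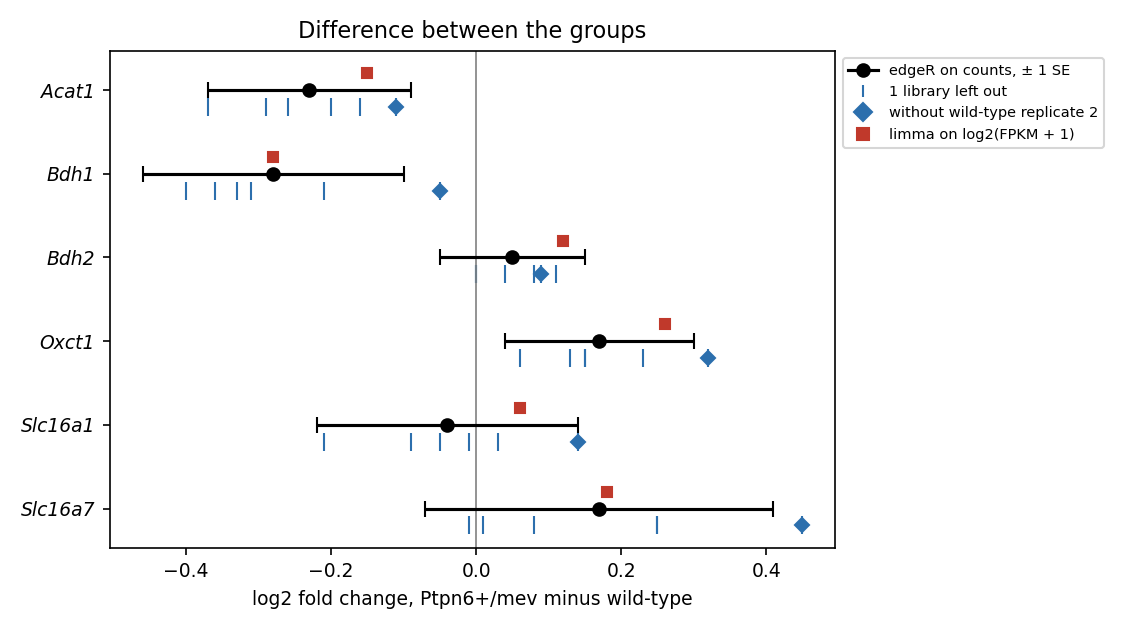
Log2 fold change of each gene, Ptpn6+/mev minus wild-type (x axis), from edgeR on counts with 1 standard error (black), with 1 library left out (blue ticks; the diamond leaves out wild-type replicate 2) and from limma on log2(FPKM + 1) (red). The differences lie between -0.28 and 0.17, and leaving out wild-type replicate 2 moves *Bdh1* to -0.05, *Oxct1* to 0.32 and *Slc16a7* to 0.45.

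The groups of *Oxct1* and *Bdh1* overlapped in CPM and not in FPKM. These scales differ by a length and by the TMM factor, which CPM uses and the deposited FPKM does not. With FPKM divided by the TMM factor, the groups of these genes still did not overlap. The study's methods define FPKM by the fragments on a transcript, its length and the library's total, so each pair of count and FPKM implies a length if both come from the same fragments. Which length stood for a gene with several transcripts is not given in the sources used here. For *Acat1* it was between 3415 and 3417 bases and for *Slc16a1* between 4440 and 4441 bases in all libraries, and each has 1 protein-coding transcript in GENCODE M21, of 3405 and 4426 bases. For *Oxct1* the implied length was 2685, 2879 and 2656 bases in the Ptpn6+/mev mice, by replicate, and 2485, 3254 and 2571 bases in the wild-type mice. GENCODE M21 lists protein-coding *Oxct1* transcripts of 3527 and 1743 bases, and the implied length lay between them in every library. Wild-type replicate 2 had the longest, and it combined the highest CPM of *Oxct1* with the second lowest FPKM.

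For *Bdh1* the implied length ran from 1846 to 2218 bases, for *Slc16a7* from 2606 to 2879 and for *Bdh2* from 1139 to 1147. The ratio of the longest to the shortest was 1.309 for *Oxct1*, 1.201 for *Bdh1*, 1.105 for *Slc16a7* and 1.008 for *Bdh2*. Among the 9130 tested genes with at least 100 counts in every library the median ratio was 1.015, and 6.75% had a larger ratio than *Oxct1* and 13.3% a larger one than *Bdh1*. The means of the implied length for *Oxct1*, 2740 bases in Ptpn6+/mev mice and 2770 bases in wild-type mice, differed by less than the SD over wild-type mice. For *Bdh1* the means were 2074 and 1928 bases, a difference larger than the SD over wild-type mice and smaller than that over Ptpn6+/mev mice, and the groups overlapped. Which transcripts were present was not measured here, and whether the implied length follows a real change in them was not tested.

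**Figure D3:**
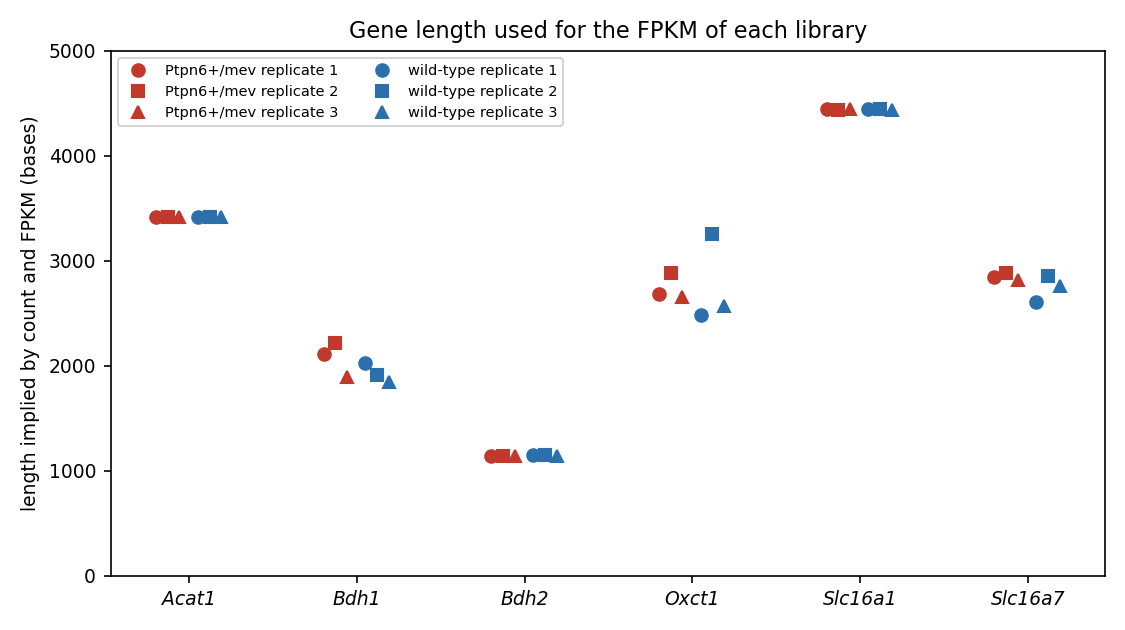
Length in bases that the deposited count and FPKM imply for each of the 6 genes (y axis, from 0) in each library (symbols as replicates, colours as groups). *Acat1*, *Slc16a1* and *Bdh2* keep 1 length in all libraries to within 8 bases, while *Oxct1* spans 2485 to 3254 bases, the longest in wild-type replicate 2.

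Sequence from the 250 bases before the RefSeq starts of *Oxct1*, *Bdh1* and *Slc16a1* is shown because the groups of the first 2 genes overlapped in CPM and not in FPKM, *Bdh1* has 2 annotated starts, and the *Slc16a1* window holds motif matches. The windows come from RefSeq on GRCm38.p6, where 4 of the 6 genes were matched in the table used here, and all lie on the plus strand. The RefSeq starts differ from those of GENCODE M21 given above, so each window is printed only as far as the last base before a GENCODE exon, which leaves 205 bases for *Oxct1*, 233 and 245 for *Bdh1* and all 250 for *Slc16a1*. Motifs and base composition were read over the whole windows. Capitals mark matches on either strand to CACGTG (the E-box), GGGCGG (the GC box), CCAAT and AGGTCA (the core that many nuclear receptors bind). These 4 motifs do not contain each other.
Oxct1 chr15:4026178-4026382: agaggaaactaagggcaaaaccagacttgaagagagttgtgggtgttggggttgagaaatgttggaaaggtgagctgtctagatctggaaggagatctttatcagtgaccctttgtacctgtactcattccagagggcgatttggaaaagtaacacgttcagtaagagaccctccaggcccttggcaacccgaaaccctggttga
Bdh1, first start chr16:31422047-31422279: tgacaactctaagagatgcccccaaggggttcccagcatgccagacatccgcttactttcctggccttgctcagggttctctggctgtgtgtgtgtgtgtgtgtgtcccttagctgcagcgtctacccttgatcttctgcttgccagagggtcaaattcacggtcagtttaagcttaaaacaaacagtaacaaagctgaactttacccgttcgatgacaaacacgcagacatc
Bdh1, second start chr16:31428503-31428747: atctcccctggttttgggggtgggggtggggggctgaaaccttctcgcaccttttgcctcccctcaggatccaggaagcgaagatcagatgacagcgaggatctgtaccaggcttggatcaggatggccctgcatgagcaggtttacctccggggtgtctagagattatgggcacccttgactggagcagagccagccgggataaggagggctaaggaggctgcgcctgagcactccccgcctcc
Slc16a1 chr3:104638414-104638663: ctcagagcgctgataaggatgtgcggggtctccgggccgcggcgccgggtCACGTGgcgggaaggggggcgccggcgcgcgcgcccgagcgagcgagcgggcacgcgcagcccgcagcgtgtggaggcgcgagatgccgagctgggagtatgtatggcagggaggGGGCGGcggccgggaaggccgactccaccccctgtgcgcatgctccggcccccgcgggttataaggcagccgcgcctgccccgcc
Among the windows shown, that of *Slc16a1* held matches, with the E-box letters from 200 to 195 bases and the GC box letters from 85 to 80 bases before the start. The *Bdh2* window, not shown, held CCAAT on the minus strand from 141 to 137 bases before its start. Among all 32851 windows of 250 bases, 6.02% held CACGTG, 32.7% GGGCGG, 33.8% CCAAT and 14.0% AGGTCA. The *Slc16a1* window was 76.4% G and C with 37 CG pairs, against 52.0% and 6 for *Oxct1*, and 49.6% and 60.8% for the first and second *Bdh1* windows. The median over all windows was 52.4% and 6 CG pairs. A match of letters is not a bound site, and no match says only that these letters are not in this window.

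Profiles over the 6 libraries were compared as log2 CPM centred on each gene's mean, and likeness was the root mean square difference between profiles over 6 libraries. With 13036 genes and 6 libraries close profiles arise easily, and nothing is read from them. The nearest tested genes were *Vdac3* and *Rragd* to *Oxct1* (0.040 and 0.044), *Trpc1* and *Rsad1* to *Acat1* (0.016 and 0.040), and *BC003331* and *Hps3* to *Bdh1* (0.034 and 0.039). They were *Mlx* and *Armc8* to *Bdh2* (0.024 and 0.031), *Vbp1* and *Elf1* to *Slc16a1* (0.056 and 0.059), and *Scai* and *Arfgef1* to *Slc16a7* (0.056 and 0.065). For scale, the root mean square of the gene's own profile was 0.185 for *Oxct1*, 0.207 for *Acat1*, 0.250 for *Bdh1*, 0.086 for *Bdh2*, 0.232 for *Slc16a1* and 0.306 for *Slc16a7*.

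Genes around the same reactions were read from 4 lists, 55 genes in all, of which 51 passed the filter on low counts. The lists were written with earlier results of these data known. Their counts beside the shares of all tested genes are therefore a description and not a test of the lists. With edgeR's quasi-likelihood test 0 of the 51 reached an FDR under 0.05, where 0.138% of all tested genes did. At an unadjusted p under 0.05 there were 21, all with lower levels in Ptpn6+/mev mice, where 6.71% of all tested genes were. The exact test called 3, where 2.99% of all tested genes passed, and DESeq2 4, where 3.04% passed, each lower in Ptpn6+/mev mice. limma called 0 on log2(FPKM + 1) and 0 on log2(FPKM + 0.1), where 0.146% and 0.0614% passed. A log2 fold change below 0 was found for 45 of the 51, against 50.5% of all tested genes, and their median was -0.21. The number below 0 was 41 without wild-type replicate 2 and 38 in limma on log2(FPKM + 1), where the median of all genes was 0.06 and that of the lists -0.13. In CPM, 23 of the 51 had every Ptpn6+/mev mouse below every wild-type mouse, where 9.80% of all tested genes did, and 0 had the opposite. Of the 6 ketone body genes, *Bdh1* at -0.28 and *Acat1* at -0.23 lay beyond the lists' median and the other 4 above it. Their own median was 0.01, and a difference between them and the lists was not tested.

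Of the 8 other ketone enzymes 6 were tested, and 5 lay below 0, with a median log2 fold change of -0.34. *Acat3*, a cytosolic thiolase and near copy of *Acat2*, had 54.6, 51.9 and 62.1 FPKM in Ptpn6+/mev mice against 83.1, 88.9 and 89.7 in wild-type mice. The log2 fold change was -0.66 ± 0.12 (SE, adjusted p = 0.0852), with an adjusted p of 9.7e-04 in the exact test, 4.0e-04 in DESeq2, 0.0285 without wild-type replicate 2 and at most 0.373 over all 13 alternatives. *Acat2*, the sterol-pathway thiolase, had a log2 fold change of -0.15 ± 0.09 (SE). Both had fractional counts in all 6 libraries and their levels are uncertain, since how reads that match several genes were split was not tested.

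*Hmgcs1*, the cytosolic synthase of the sterol pathway, had a log2 fold change of -0.44 ± 0.16 (SE, adjusted p = 0.322). *Aacs*, which activates acetoacetate for lipid synthesis in the cytosol, had -0.37 ± 0.15 (SE, adjusted p = 0.352), and it is named here after its value was seen. *Oxct2a* and *Oxct2b*, the testis forms of the CoA transferase, were near 0, with at most 9 and 1 counts in a library, so *Oxct1* held nearly all counts of the CoA transferase genes.

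Among the other carriers, chaperones and receptors 12 of 14 genes were tested, and 8 lay below 0, or 6 in limma on log2(FPKM + 1), with a median log2 fold change of -0.11, or -0.05 without wild-type replicate 2. *Bsg*, the chaperone that brings MCT1 to the membrane, was abundant and even, with 468 ± 3.27 and 446 ± 20.0 FPKM (SD, n = 3 each) and a log2 fold change of -0.00 ± 0.08 (SE), or 0.03 without wild-type replicate 2. *Slc16a12*, a creatine carrier of the same family, had -0.05 ± 0.09 (SE), or -0.03 without it. *Slc16a13* had -0.37 ± 0.12 (SE, adjusted p = 0.247), and *Slc16a6*, an exporter of 3-hydroxybutyrate in the liver, had -0.46 ± 0.13 (SE, adjusted p = 0.221). *Slc16a6* had fractional counts in all 6 libraries. *Slc5a8*, a sodium-coupled monocarboxylate carrier of the proximal tubule singled out after its value was seen, had 1.91 ± 0.314 against 3.23 ± 0.902 FPKM (SD, n = 3 each), a log2 fold change of -0.84 ± 0.25 (SE, adjusted p = 0.221), or -0.54 without wild-type replicate 2. *Slc5a12*, its low-affinity counterpart, had 0.01 ± 0.17 (SE), or -0.04 without that library. The 3-hydroxybutyrate receptor gene *Hcar2* was low, at 0.887 ± 0.180 and 0.643 ± 0.186 FPKM (SD, n = 3 each). These 2 were likewise chosen after their values were seen.

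Ketone body use draws on succinyl-CoA and feeds acetyl-CoA into the citric acid cycle. All 14 genes around these reactions were tested and all 14 lay below 0, with a median of -0.18, but only 10 of the 14 did without wild-type replicate 2, where the median was -0.11. *Suclg1*, a subunit of succinyl-CoA ligase, had 221 ± 7.27 against 242 ± 10.8 FPKM (SD, n = 3 each), and a log2 fold change of -0.21 ± 0.09 (SE, adjusted p = 0.416), or -0.13 without wild-type replicate 2. The lactate dehydrogenase genes *Ldha* and *Ldhb* had -0.08 ± 0.07 (SE) and -0.25 ± 0.13 (SE), and *Mpc1*, part of the mitochondrial pyruvate carrier, had -0.01 ± 0.12 (SE). Without wild-type replicate 2, *Ldhb* was at -0.10 and *Mpc1* at 0.11. *Acss2*, the cytosolic acetyl-CoA synthetase and named because the exact test and DESeq2 called it, had -0.58 ± 0.12 (SE, adjusted p = 0.104 in the quasi-likelihood test, 0.00568 in the exact test, 0.00459 in DESeq2 and at most 0.457 over the alternatives).

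Branched-chain amino acid breakdown shares *Acat1* with the ketone pathway. All 19 genes were tested, 18 lay below 0, or 15 in limma on log2(FPKM + 1), and the median log2 fold change was -0.24, or -0.15 without wild-type replicate 2. In 11 of the 19 every Ptpn6+/mev mouse was below every wild-type mouse in CPM, against 9.80% of all tested genes. *Hibadh*, an enzyme of valine breakdown, had 141 ± 4.83 against 164 ± 19.8 FPKM (SD, n = 3 each), and a log2 fold change of -0.30 ± 0.12 (SE, adjusted p = 0.373). *Pccb*, a subunit of propionyl-CoA carboxylase, had -0.38 ± 0.10 (SE, adjusted p = 0.174, 0.0373 in DESeq2 and at most 0.563 over the alternatives). *Hsd17b10*, the isoleucine pathway enzyme before Acat1, had -0.04 ± 0.10 (SE), and *Bckdha*, of the branched-chain keto acid dehydrogenase, -0.30 ± 0.13 (SE). Without wild-type replicate 2, the highest mouse for *Hibadh*, the log2 fold changes of *Hibadh* and *Bckdha* were both -0.15, and that of *Hsd17b10* was 0.03. *Aldh6a1*, of valine breakdown and named because the exact test and DESeq2 called it, had 49.5 ± 3.02 against 74.8 ± 16.2 FPKM (SD, n = 3 each). Its log2 fold change was -0.67 ± 0.17, or -0.43 without wild-type replicate 2 (SE, adjusted p = 0.174 in the quasi-likelihood test, 0.0251 in the exact test, 0.018 in DESeq2, 0.0465 without wild-type replicate 2 and at most 0.556 over the alternatives).

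**Figure D4:**
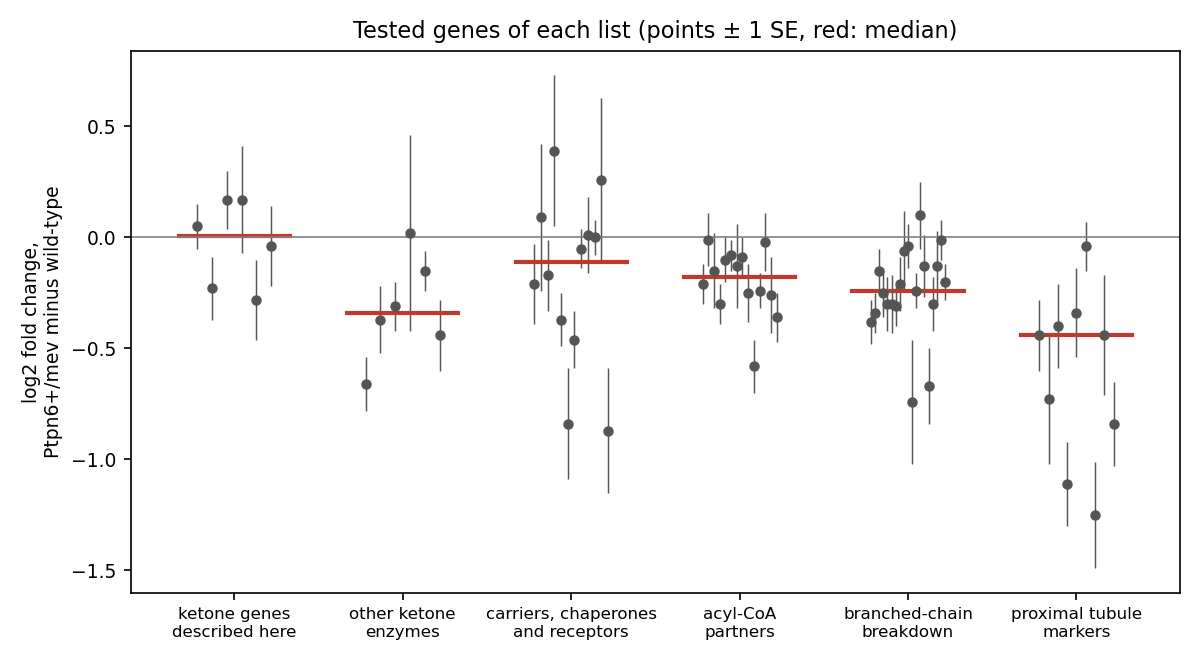
Log2 fold change, Ptpn6+/mev minus wild-type (y axis), of every tested gene in each list (points, with 1 standard error; red lines, medians). The medians are 0.01 for the 6 ketone body genes, -0.34 for other ketone enzymes, -0.11 for carriers, -0.18 for acyl-CoA partners, -0.24 for branched-chain breakdown and -0.44 for proximal tubule markers.

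Proximal tubule markers lay on the same side as these lists. All 9 were tested and all 9 had a log2 fold change below 0, or 8 in limma on log2(FPKM + 1). Their median was -0.44, or -0.57 without wild-type replicate 2 and -0.66 without wild-type replicate 3. The median of the 4 lists together was -0.21, or -0.15 and -0.26 in the same fits. The summed level of the 9 markers was 974 to 1063 FPKM in Ptpn6+/mev mice and 1255 to 1448 FPKM in wild-type mice. The largest part of it was *Slc27a2*, at 482 ± 87.5 and 604 ± 123 FPKM (SD, n = 3 each), whose groups overlapped. In CPM, 3 of the 9 had every Ptpn6+/mev mouse below every wild-type mouse, against 9.80% of all tested genes. None of the 9 was at 0 in any library. In the quasi-likelihood fit of edgeR 0 of the 9 reached an FDR under 0.05, while 5 had an unadjusted p under 0.05, all lower, against 6.71% of all tested genes. The exact test called 3, against 2.99% of all tested genes, and DESeq2 3, against 3.04%. *Slc22a6*, an organic anion carrier of this segment, had a log2 fold change of -1.11 ± 0.19 (SE, adjusted p = 0.0774). Without wild-type replicate 2 the quasi-likelihood fit called 4 of the 9, *Slc22a6* among them at an adjusted p of 0.0288, and 231 of the 13036 tested genes. Without wild-type replicate 3 it called 2 of the 9 and 65 of all tested genes. In bulk kidney, fewer cells of a type and less RNA per cell cannot be told apart, and the part of the proximal tubule in the lists' values was not tested. The summed level of the 6 ketone body genes was 377 to 426 FPKM in Ptpn6+/mev mice and 371 to 402 FPKM in wild-type mice, and these ranges overlapped. Markers of injured tubule summed to 26152 to 32049.6 and 29573 to 38335 FPKM, those of distal nephron and collecting duct to 2039 to 2945 and 2489 to 2880.4, and those of macrophages to 164 to 268 and 107 to 235, with wild-type replicate 2 lowest in the last. The injured tubule sum was mostly the osteopontin gene *Spp1*, at 22933 ± 2357 and 28319 ± 4298 FPKM (SD, n = 3 each). *Havcr1*, which encodes KIM-1, had 1505 ± 64.6 against 1203 ± 100.3 FPKM, and the adhesion gene *Vcam1* had 20.0 ± 5.85 against 9.68 ± 3.27 FPKM (SD, n = 3 each), both without overlap between the groups in CPM, as in 19.4% of all tested genes. Of the 7 markers 4 lay above 0 and 3 below, or 1 below in limma on log2(FPKM + 1). Their median log2 fold change was 0.08, or 0.28 without wild-type replicate 2 and 0.15 without wild-type replicate 3. *Spp1*, *Havcr1* and *Vcam1* were named after their values were seen. The quasi-likelihood fit called 0 genes in these 3 lists. At an unadjusted p under 0.05 were *Havcr1* and *Vcam1*, higher, and *Spp1* and the distal tubule gene *Slc12a3*, lower, and the exact test and DESeq2 each called *Vcam1*. Without wild-type replicate 2 the quasi-likelihood fit called 1 gene of these lists, the keratin gene *Krt20*, whose log2 fold change went from 0.16 to 0.65 (adjusted p = 0.0289). Whether these markers have a part in the values of the ketone body genes was not tested.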

How the data were processed

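Kidney mRNA libraries of 3 Ptpn6+/mev and 3 wild-type mice were grouped and numbered by their labels. The authors removed adaptor and low-quality sequence, aligned reads to GRCm38.p5 (Ensembl release 90) with TopHat and obtained FPKM with Cufflinks. The submitters' processing notes also list Bowtie2, TopHat2 2.0.3.12 and RSEM, without roles. The deposited table holds expected counts and FPKM, which the authors computed for 21367 genes. Counts were rounded and 1744 genes had a fractional count, none of them a member.

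R 4.3.3 with edgeR 4.0.16 gave the fit: TMM scaling, filterByExpr, the quasi-likelihood test and Benjamini-Hochberg adjustment over 13036 genes. The standard error is the log2 fold change divided by the root of F. log2 CPM used a prior count of 2. The alternatives were DESeq2 1.42.0, edgeR's exact test, limma 3.58.1 on log2(FPKM + 1) and log2(FPKM + 0.1), DESeq2's size factors, no filter, a replicate block and each library left out. The fits were tested on simulated data. Libraries of a group differed by more than counting noise (chi-square per degree of freedom 6.27 to 43.3). Totals of 10271590 to 12361745 counts left at least 219 counts for each member in each library.

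Members and lists were chosen with earlier results of these data known. Named are the members, the 4 most abundant genes of each pathway list and any called, the 2 nearest profiles per member and *Ptpn6*. Marker genes and other names were chosen after their values were seen. 1 gene that this rule names is not reported here. The lists are not complete. Positions are from GENCODE M21 (GRCm38). Figures used Python 3.11.15 and matplotlib 3.10.9.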

Additional observations from a re-analysis of the deposited data

How the results depend on the processing

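Over all tested genes, the number with an FDR under 0.05 was 18 and depended on the tool and the libraries. It was 52 without the filter on low counts, 388 with DESeq2, 390 with edgeR's exact test, 8 with limma on log2(FPKM + 0.1), and between 1 and 231 with 1 library left out, the lowest when Ptpn6+/mev replicate 3 and the highest when wild-type replicate 2 was dropped. For the 51 tested genes of the 4 lists the number was 0. It became 4 with DESeq2, 3 with the exact test and 0 to 3 with 1 library left out, 3 without wild-type replicate 2, where *Acat3*, *Acly* and *Aldh6a1* passed. The cause was not tested.

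The log2 fold changes of the 6 ketone body genes stayed within 1 SD of the spread between mice in all 78 combinations of gene and alternative. The alternatives reuse the same mice, so a larger move was unlikely, and this count does not measure how stable the values are. *Bdh1*, *Oxct1* and *Acat1* kept their direction in all 13 alternatives, with ranges of -0.40 to -0.05, 0.06 to 0.32 and -0.37 to -0.11. *Bdh2* and *Slc16a7* kept it in 12 of 13. *Slc16a1* kept it in 9 of 13, with a range of -0.21 to 0.14. The median over the 6 genes ran from -0.07 to 0.12 with 1 library left out. With the replicate number as a block, 1 gene passed among all tested genes and 0 in the lists, and the median over the ketone body genes was 0.02. The labels do not say that the numbers mark a shared litter or day. Deviations from the group means correlated at -0.144, -0.184 and -0.13 between same-numbered libraries, and 0 of 3 Ptpn6+/mev libraries matched best with their own number. These values gave no sign of pairing, but with 3 mice per group they cannot exclude it.

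Depth was even, and *Slc16a7*, with 219 to 343 counts, was the member whose precision it limits most.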

Other observations

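The fat genes *Adipoq*, which encodes adiponectin, and *Plin1*, which encodes a lipid droplet protein, were present in 3 libraries and near 0 in the others. *Adipoq* had 5.19 FPKM in Ptpn6+/mev replicate 1, 4.36 in wild-type replicate 1 and 7.30 in wild-type replicate 3, and at most 0.07 in the other 3. Their part in the values of the ketone body genes was not tested. *Alb*, the liver's albumin gene, was at 1.70 to 2.23 FPKM in Ptpn6+/mev mice and 3.68 to 6.29 FPKM in wild-type mice, which did not overlap, with a log2 fold change of -1.49 ± 0.27 (SE, adjusted p = 0.0852, from 2.3e-04 to 0.373 over the alternatives). *Apoa1*, a further liver gene, was at 0 in all Ptpn6+/mev mice and at most 0.26 FPKM in wild-type mice. The 4 liver genes together summed to 33.5 to 44.3 FPKM in Ptpn6+/mev mice and 34.8 to 49.8 FPKM in wild-type mice. Most of it was *Ttr*, the transthyretin gene, which lay the other way, at 32.2 ± 6.36 against 24.5 ± 5.75 FPKM (SD, n = 3 each) with a log2 fold change of 0.31 ± 0.22 (SE, adjusted p = 0.64). That log2 fold change was 0.56 without wild-type replicate 2 and 0.14 without wild-type replicate 3. *Serpina1a*, an antitrypsin gene, had 6.57 ± 2.74 against 13.4 ± 3.75 FPKM (SD, n = 3 each) and a log2 fold change of -1.09 ± 0.33 (SE, adjusted p = 0.231, from 0.0466 in DESeq2 to 0.588 over the alternatives). Its counts were fractional in all 6 libraries, so its level is uncertain in the same way as those of *Acat2* and *Acat3*. Neutrophil markers summed to 20.5 to 54.0 FPKM in Ptpn6+/mev mice and 24.1 to 40.7 FPKM in wild-type mice.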
